A study of Mus musculus with 6 samples.

Results

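The cytochrome P450 genes were followed in sorted stromal cells from mouse skin and from healing skin wounds. The set held every gene of the authors' deposited table whose symbol starts with Cyp and a digit, except Cyp51 and the Cyp26 genes, and had 63 members among 19267 genes. Cells without CD45, carried by white blood cells, and without CD31, carried by endothelium, were sorted from transgenic mice with a GFP reporter named SMA-GFP, after smooth muscle actin. The skin group (SMA+) held cells with low GFP from the dermis, which the labels call fibroblast-like. The wound group (SMA+++) held cells with high GFP taken 7 days after injury, which the labels call myofibroblasts, cells that contract the healing tissue. Each group had 3 arrays. Skin cells with high GFP and wound cells with low GFP were not measured here, so reporter level and injury cannot be told apart. The labels used here give neither the strain, the age nor the number of the animals, nor whether replicates are from different animals. The p-values therefore rest on the spread among these arrays alone, which may be technical.

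P450 enzymes carry a haem group and use oxygen to oxidise their substrates. Most of those in the endoplasmic reticulum take electrons from P450 oxidoreductase (Por) and in part from cytochrome b5, and those of mitochondria from ferredoxin. Families 1 to 3 act mainly on drugs, toxicants and eicosanoids, and many of family 4 hydroxylate fatty acids, while smaller families make or break down steroid hormones, oxysterols, bile acids and vitamin D. Best known from the liver, P450 enzymes are also found in skin, where they take part in the handling of foreign compounds and lipids. Several family 1 genes are switched on by the aryl hydrocarbon receptor (Ahr), which binds DNA with its partner Arnt at sites with the core letters GCGTG.

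The 250 bases before the start of 3 members are printed because these members stand for the main patterns: Cyp1a1 and Cyp1b1 are textbook Ahr targets that moved in opposite directions, and Cyp2f2 had the largest difference of all members. The sequences are from RefSeq (GRCm38.p6), run 5′ to 3′ on the strand of the gene, and have GCGTG or its reverse complement CACGC in capitals.
Cyp1a1 (chr9:57697363-57697612, strand +): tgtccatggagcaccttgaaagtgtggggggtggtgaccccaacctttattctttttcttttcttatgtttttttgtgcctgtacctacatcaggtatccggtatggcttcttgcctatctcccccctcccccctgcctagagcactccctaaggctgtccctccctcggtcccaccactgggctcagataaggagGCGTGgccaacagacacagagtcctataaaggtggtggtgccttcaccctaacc
Cyp1b1 (chr17:79715062-79715311, strand -): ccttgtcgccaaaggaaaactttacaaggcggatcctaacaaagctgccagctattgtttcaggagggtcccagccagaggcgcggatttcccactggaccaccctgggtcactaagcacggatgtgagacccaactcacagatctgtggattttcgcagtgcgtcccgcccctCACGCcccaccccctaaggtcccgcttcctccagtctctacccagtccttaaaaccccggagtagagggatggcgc
Cyp2f2 (chr7:27119705-27119954, strand +): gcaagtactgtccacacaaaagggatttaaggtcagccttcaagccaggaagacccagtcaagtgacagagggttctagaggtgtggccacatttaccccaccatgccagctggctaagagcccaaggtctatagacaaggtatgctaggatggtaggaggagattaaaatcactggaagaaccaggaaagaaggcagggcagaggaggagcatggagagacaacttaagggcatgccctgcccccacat

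The Cyp1a1 and Cyp1b1 stretches each hold 1 match and the Cyp2f2 stretch holds 0. Both strands were searched. RefSeq upstream stretches were found for 44 members, 47 stretches in all, and for the other 19 members none was used. The letters occurred in 12 of these 47 stretches (25.5%) and in 28.2% of all 32851 mouse stretches of the same length. A match is a description of the letters, not of a binding site.

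P450 genes were called in both directions, at a share near that of all genes. Of the 63 members, 35 were well above background on all 6 arrays, 26 on 1 to 5 arrays and 2 on none (Cyp2d37-ps and Cyp3a16). For the test a gene had to be clearly above background on every skin array, on every wound array, or on both. This left 43 members among 16695 genes, and with limma 13 passed an adjusted p of 0.05, 8 of them lower and 5 higher in wound cells. That is 30.2% of the members tested, beside 34.1% of all genes tested (15.6% lower and 18.5% higher). The median wound minus skin difference was -0.08 on the log2 scale over the 43 members and 0.04 over all genes tested. By the filter, 6 members entered the test through the skin arrays alone and 2 through the wound arrays alone. Among the 35 members above background on all 6 arrays, 11 passed in a test over 15027 such genes (31.4%, 6 lower and 5 higher), beside 33.6% of those genes (14.6% lower and 18.9% higher), and their median difference was 0.00. The term for the array design matters for the number of calls: without it 7 members passed, 6 of them shared with the 13, beside 1745 of all genes.

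Values below are log2 of the processed signal relative to the 75th percentile of the same array, so 0 is that percentile and a difference of 1 is a doubling. Replicates 1 and 2 were on array design 026655 and replicate 3, a name given here to arrays without a number, on design 028005, and replicates are compared within a design. Each set of 3 values is listed for replicates 1, 2 and 3 in that order. Differences are wound minus skin with the standard error (SE) of the limma model, n = 3 arrays per group, and adjusted p-values are Benjamini-Hochberg values over all genes tested. In sorted bulk cells, fewer cells of a type and less RNA per cell cannot be told apart. Probes of closely related copies can bind each other's RNA, so values of single Cyp2c, Cyp2d, Cyp2j, Cyp4a and Cyp4b1 pseudogene members are uncertain. Levels of different genes come from different probes and served to choose which members that did not pass are shown by array, not to compare genes. The exception is the summed level of a marker list at the end, which adds linear levels of different probes. The ranges of these sums run over both designs and so include the offset between designs.

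**Figure D1:**
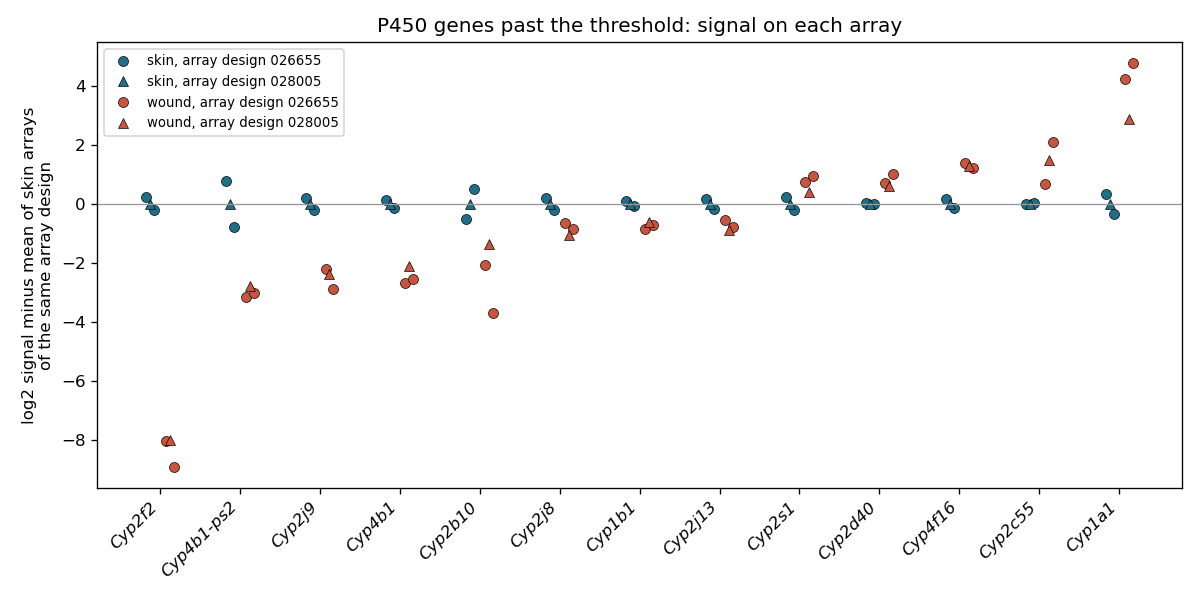
Signal of each of the 13 called P450 members on each array, as log2 minus the mean of the skin arrays of the same array design. There is 1 point per array, with the groups and array designs marked. Before that subtraction, relative to the 75th percentile of the array, Cyp2f2 lay between 6.35 and 7.48 in skin cells and between -2.34 and -0.51 in wound cells. On that scale Cyp1a1 lay between -2.80 and -2.09 in wound cells, and it was not well above background on any skin array.

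Families 1 to 3, the enzymes of drugs, toxicants and eicosanoids, held 38 members, of which 25 were tested, 4 rose, 6 fell and 15 did not pass, so that 40% were called beside 34.1% of all genes. Their median difference was -0.22, beside 0.04 for all genes tested. The largest difference was that of Cyp2f2, known for activating naphthalene in the airways of the mouse. Its level was 6.80, 6.35 and 7.48 in skin cells and -1.45, -2.34 and -0.51 in wound cells. It was well above background on all 6 arrays, and each wound array lay far below the skin arrays of its design, with pair differences of -8.25, -8.69 and -7.99. The limma difference was -8.31 (SE 0.28, adjusted p = 5.19e-05), or 317-fold lower. In the same arrays 8 of 9 tested keratinocyte markers and 4 of 6 Schwann cell markers were lower in wound cells too, with the levels given at the end, and their part in the lower P450 members was not tested.

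The family 1 members Cyp1a1 and Cyp1b1 moved in opposite directions. Cyp1a1 oxidises aromatic hydrocarbons and is the classical Ahr target. Its level was -6.53, -7.19 and -5.68 in skin cells, none of them well above background, and -2.64, -2.09 and -2.80 in wound cells, all well above it. The fitted difference, with skin values at background, was 3.96 (SE 0.39, limma adjusted p = 0.000677). Against a background floor, a fold that was not itself tested, the gene stood 14.7-fold higher in wound than in skin cells. The floor was, on each skin array, the higher of the lowest signal well above background and the signal of the probe. This limit is lenient: skin replicate 3 read -5.68, above the lowest such signal of its array (-6.63), and still was not well above background. The fold is therefore no strict lower bound. Cyp1a1 entered the test through the wound arrays alone. The size depends on how the background is treated: with a normexp correction and an added offset the difference was 1.13. Cyp1b1 oxidises hydrocarbons and oestrogens and is active in many tissues outside the liver. Its level was 2.77, 2.61 and 3.59 in skin cells and 1.82, 1.96 and 2.96 in wound cells. All wound arrays were below the skin arrays of their design, and Cyp1b1 was 1.67-fold lower (-0.74, SE 0.15, limma adjusted p = 0.0110). Without skin replicate 1 its adjusted p was 0.0653.

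The Cyp2j genes, whose enzymes turn arachidonic acid into epoxides, lie next to each other in the genome. Of 5 Cyp2j members, 4 were tested and 3 fell, while 15.6% of all genes tested were lower. With 4 genes whose probes can bind each other's RNA, this count says little about the family as a whole. Cyp2j9 read 1.23, 0.80 and 1.89 in skin cells and -1.18, -1.86 and -0.48 in wound cells. The groups were apart within both designs and the pairs differed by -2.41, -2.66 and -2.36, so that Cyp2j9 was 5.58-fold lower (-2.48, SE 0.23, limma adjusted p = 0.00054). Cyp2j8 read 0.32, -0.08 and 0.82 in skin cells and -0.52, -0.73 and -0.22 in wound cells (-0.85, SE 0.18, limma adjusted p = 0.0137), and with the mean of all its probes the difference was -0.46 (adjusted p = 0.163). Its call was also lost without skin replicate 1 (adjusted p = 0.0671) and without either array of design 028005 (0.0619). Cyp2j13 read -2.40, -2.73 and -1.73 in skin cells and -3.11, -3.35 and -2.62 in wound cells (-0.74, SE 0.17, limma adjusted p = 0.0189). The call of Cyp2j13 rests on its brightest probe, since the mean of all its probes gave a difference of 0.080 (adjusted p = 0.777). It was also lost in the authors' deposited table (adjusted p = 0.389), with the normexp correction (0.0734) and without skin replicate 1 (0.0900), wound replicate 2 (0.0546) or either array of design 028005 (0.0792). Cyp2j6, the other tested member, differed by -0.31 (SE 0.18, limma adjusted p = 0.229).

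Among the other members of families 1 to 3, Cyp2b10 fell and Cyp2c55, Cyp2d40 and Cyp2s1 rose. Cyp2b10, the classical target of the receptor Nr1i3 in liver, read -4.32, -3.29 and -3.56 in skin cells and -5.88, -7.51 and -4.92 in wound cells, of which 1 was well above background. It fell (-2.38, SE 0.55, limma adjusted p = 0.0183), by a size that rests on wound values mostly at background, and without skin replicate 2 the adjusted p was 0.0534. With the normexp correction its difference was -0.60. Cyp2c55, which hydroxylates arachidonic acid, read -3.37, -3.33 and -3.10 in skin cells and -2.68, -1.27 and -1.62 in wound cells. Its pairs differed by 0.69, 2.06 and 1.48, and it was 2.65-fold higher (1.41, SE 0.35, limma adjusted p = 0.0251). That call was lost on leaving out skin replicate 1 (adjusted p = 0.0709), skin replicate 2 (0.0693) or either array of design 028005 (0.0795). Cyp2d40, a member of the large mouse Cyp2d family, read -3.57, -3.59 and -3.02 in skin cells and -2.86, -2.58 and -2.42 in wound cells. It was 1.71-fold higher (0.77, SE 0.16, limma adjusted p = 0.0121), but did not pass without skin replicate 1 (adjusted p = 0.0610) or with the normexp correction (0.38, adjusted p = 0.0812). Cyp2s1, which is active in epithelia and can be induced through Ahr, read -2.01, -2.45 and 0.10 in skin cells and -1.49, -1.28 and 0.49 in wound cells (0.69, SE 0.20, limma adjusted p = 0.0377). The groups of Cyp2s1 were apart within both designs, but the call was lost on leaving out replicate 1 or 2 of either group. Its adjusted p was 0.0567 with the replicate number as a block. Cyp2w1 had pair differences of -0.75, -0.74 and -0.72 and did not pass (-0.73, SE 0.32, limma adjusted p = 0.132), but passed as lower with the replicate number as a block.

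Cyp2g1, an enzyme best known from the olfactory lining, had a large difference that 1 array did not share. It read -1.16, -2.01 and -1.52 in skin cells and -4.81, -7.24 and -1.51 in wound cells, so the arrays of design 028005 were level while those of design 026655 were far apart. The difference of -2.96 (SE 1.04) did not pass (limma adjusted p = 0.0725). It passed as lower on design 026655 alone, which leaving out either array of design 028005 equals, with the normexp correction and without the design term. Its neighbours in the genome include Cyp2f2, Cyp2b19 and Cyp2t4. Cyp2b19, known from differentiated keratinocytes, was well above background on 2 skin arrays and 0 wound arrays and was not tested. Cyp2t4 differed by -0.21 (SE 0.21, limma adjusted p = 0.496).

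The fatty acid hydroxylases, family 4 and Cyp2u1, held 16 members, of which 10 were tested, 1 rose, 2 fell and 7 did not pass, 30% called beside 34.1% of all genes, with a median difference of -0.04. Cyp4b1, which hydroxylates fatty acids and activates several toxicants, read 4.53, 4.27 and 5.24 in skin cells and 1.72, 1.85 and 3.15 in wound cells. All wound arrays lay below all skin arrays, and it was 5.43-fold lower (-2.44, SE 0.18, limma adjusted p = 0.000257). The pseudogene Cyp4b1-ps2 lies close to it and read -1.58, -3.13 and -1.90 in skin cells and -5.52, -5.38 and -4.69 in wound cells, with 1 wound array well above background. It fell (-2.99, SE 0.39, limma adjusted p = 0.00197), again by a size that rests on wound values mostly at background, and with the normexp correction the difference was -1.27. It entered the test through the skin arrays alone, as did Cyp2b10. Cyp4f16, of a family that hydroxylates leukotrienes and other fatty acids, read -1.75, -2.05 and -0.94 in skin cells and -0.53, -0.69 and 0.34 in wound cells. Its pairs differed by 1.22, 1.36 and 1.28, a close spread, and it was 2.44-fold higher (1.29, SE 0.16, limma adjusted p = 0.0015). Its neighbour Cyp4f17 differed by 0.30 (SE 0.16, limma adjusted p = 0.206). Cyp2u1, which hydroxylates long fatty acids, did not pass, at 5.34, 5.84 and 5.88 in skin cells and 4.84, 5.31 and 6.09 in wound cells (-0.27, SE 0.25, limma adjusted p = 0.446).

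**Figure D2:**
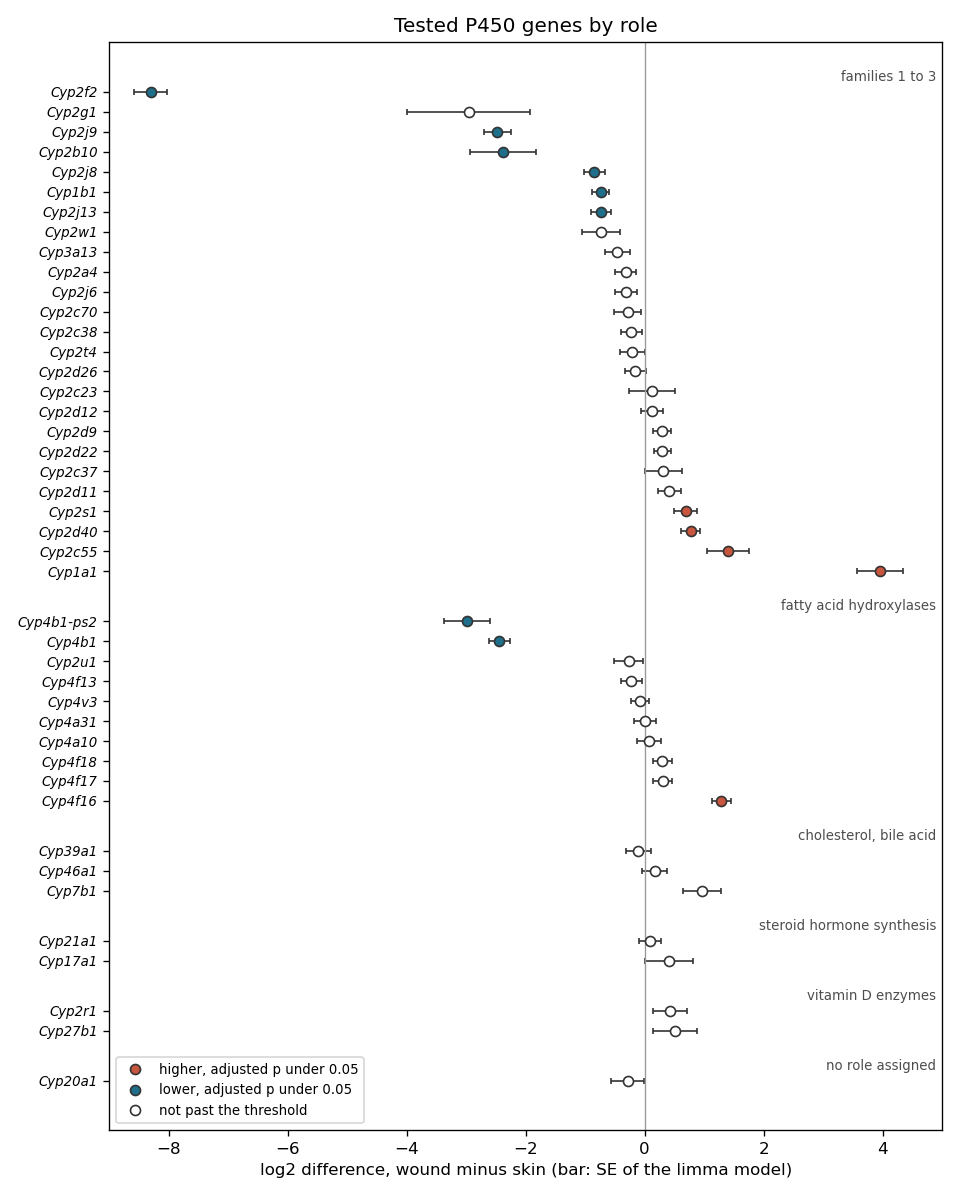
Wound minus skin difference (log2) of each of the 43 tested P450 members by role, with the standard error of the limma model and the called members marked. Called members stood on both sides of 0 among families 1 to 3 and the fatty acid hydroxylases, and no member of the other roles passed the threshold.

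None of the 8 tested members with steroid, oxysterol, vitamin D or no assigned roles passed limma's adjusted threshold of 0.05, and at an unadjusted p of 0.05 1 did (Cyp7b1). Cyp7b1, which hydroxylates oxysterols, came closest among them. It read 1.39, 0.33 and 2.86 in skin cells and 2.29, 1.72 and 3.46 in wound cells, higher in wound cells in every pair (0.97, SE 0.33, limma adjusted p = 0.0648). It passed with the replicate number as a block (adjusted p = 0.0207), with the normexp correction (0.0247) and when only genes above background on all 6 arrays were tested (0.0478). Cyp39a1, another oxysterol hydroxylase, read 1.01, 0.49 and 2.34 in skin cells and 0.77, 0.85 and 1.90 in wound cells (-0.10, SE 0.21, limma adjusted p = 0.727), and Cyp46a1, which clears cholesterol from brain, differed by 0.17 (SE 0.21, adjusted p = 0.565).

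Of the steroid hormone enzymes, Cyp17a1 and Cyp21a1 were tested and Cyp19a1, the aromatase, was not. Cyp17a1, needed for androgen synthesis, read 1.57, 0.95 and 4.31 in skin cells and 2.57, 1.84 and 3.64 in wound cells. The pairs went in both directions, by 1.00, 0.89 and -0.68, and the difference of 0.40 had an SE of the same size (SE 0.40, limma adjusted p = 0.477). Cyp21a1 differed by 0.084 (SE 0.18, limma adjusted p = 0.758). The vitamin D enzymes Cyp27b1, which makes the active hormone, and Cyp2r1, which acts before it, differed by 0.50 (SE 0.37, limma adjusted p = 0.338) and 0.42 (SE 0.29, limma adjusted p = 0.303). Cyp2r1 passed as higher with the mean of its probes and in the authors' deposited table. Cyp20a1, whose substrate is unknown, read 0.90, 0.99 and 0.94 in skin cells and 0.52, 0.05 and 1.39 in wound cells (-0.29, SE 0.27, limma adjusted p = 0.461). A second Cyp20a1 probe, also well above background on all arrays, differed by -0.28 on design 026655 and by -1.20 on design 028005. In the authors' deposited table Cyp20a1 differed by -0.50 and did not pass (limma adjusted p = 0.0582).

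The 30 tested members that did not pass differed by -2.96 to 0.97. The 20 members not tested were above background on at most 2 arrays of each group. They included the liver genes Cyp2e1, Cyp3a11 and Cyp4a14, 13 members of families 1 to 3 in all, 6 of family 4 and Cyp19a1. In the genome order of GRCm38.p6, the 10 neighbouring Cyp2d members had 6 tested with 1 higher and 0 lower, and the 7 Cyp2c members had 4 tested with 1 higher and 0 lower. The 8 members of the Cyp4a and Cyp4b stretch had 4 tested with 0 higher and 2 lower, both of them Cyp4b1 genes. Of all genes tested, 18.5% were higher and 15.6% lower, and counts this small do not set these stretches apart from them.

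**Figure D3:**
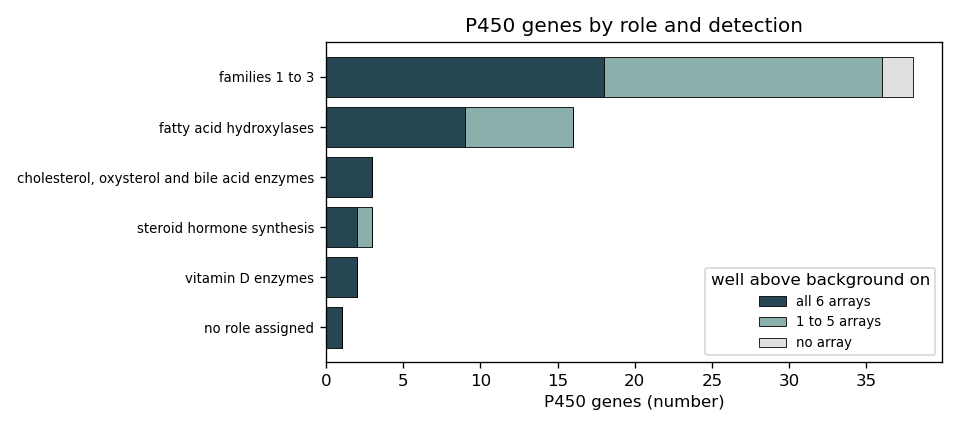
Number of P450 members (x axis, genes) in each role (y axis) by the number of arrays on which they were well above background. Of the 38 members of families 1 to 3, 18 were above background on all 6 arrays, 18 on 1 to 5 arrays and 2 on none.

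The redox partners of P450 enzymes changed in both directions. Of 12 electron donors and membrane partners, all tested, 2 rose, 3 fell and 7 did not pass, 41.7% called beside 34.1% of all genes. Por, which passes electrons to most P450 enzymes of the endoplasmic reticulum, read 4.14, 3.82 and 5.43 in skin cells and 3.11, 3.00 and 4.36 in wound cells. Each wound array was below the skin arrays of its design, and Por was 1.96-fold lower (-0.97, SE 0.16, limma adjusted p = 0.00497). Cytochrome b5 (Cyb5a) was 2.19-fold lower (-1.13, SE 0.23, limma adjusted p = 0.0124), a call lost without skin replicate 1 (adjusted p = 0.0529) or either array of design 028005 (0.0550). The reductase Cyb5r2 was well above background on 0 wound arrays. Cyb5r2 was 6.45-fold lower against the background floor. Its fitted difference was -3.13 (SE 0.24, limma adjusted p = 0.000273), and -0.83 under the normexp correction. The reductase Cyb5r4 was 1.95-fold higher (0.96, SE 0.15, limma adjusted p = 0.00446), and Fdxr, which passes electrons to mitochondrial ferredoxin, was 1.61-fold higher (0.69, SE 0.18, adjusted p = 0.0281). The call of Fdxr was lost on leaving out replicate 1 or 2 of either group (adjusted p = 0.0622 to 0.0912). Of 8 haem synthesis genes, all tested, 1 rose, 1 fell and 6 did not pass, 25% called beside the 34.1%. Alad, an early step of the pathway, rose by 1.39 (SE 0.21, limma adjusted p = 0.00368), and by 0.65 in the authors' deposited table (adjusted p = 0.0332). Alas1, the rate-limiting step, fell by 0.54 (SE 0.17, adjusted p = 0.0476), a call lost on leaving out any of the 6 arrays (adjusted p = 0.0559 to 0.196) and in the authors' deposited table (-0.29, adjusted p = 0.285).

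Most regulators of P450 genes that passed were lower in wound cells: of 23 listed, 20 were tested, 1 rose, 8 fell and 11 did not pass, which is 45% called beside 34.1% of all genes. The list was chosen with earlier results of these data known. The receptor Ahr read 1.35, 1.28 and 2.61 in skin cells and -0.98, -0.99 and 0.83 in wound cells, and was 4.38-fold lower (-2.13, SE 0.17, limma adjusted p = 0.000313). Ahrr, a repressor that Ahr itself induces, read 0.30, -0.36 and 0.60 in skin cells and -3.48, -2.86 and -2.45 in wound cells, and was 8.63-fold lower (-3.11, SE 0.25, limma adjusted p = 0.000325). Tiparp, a further Ahr target, fell by 0.66 (SE 0.15, limma adjusted p = 0.0156), and its call was lost without replicate 1 of skin (adjusted p = 0.0874) or of wound (0.0551). Of the genes named here as targets of Ahr or inducible through it, Cyp1b1, Ahrr and Tiparp were thus lower and Cyp1a1 and Cyp2s1 higher in wound cells. The partner Arnt differed by -0.30 (limma adjusted p = 0.246) and Arnt2 was not tested.

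Vdr, the vitamin D receptor, was 4.60-fold lower (-2.20, SE 0.16, limma adjusted p = 0.000254) and Cebpa, a factor of liver, fat and epidermis, 3.77-fold lower (-1.91, SE 0.19, adjusted p = 0.000703). Rxra, the partner of many nuclear receptors, differed by -1.20 (SE 0.15, limma adjusted p = 0.00146), and Cebpb and the oxysterol receptor Nr1h3 were the other members that fell, Nr1h3 not without skin replicate 1 (adjusted p = 0.0607). The bile acid receptor Nr1h4 was the 1 regulator that rose (1.33, SE 0.27, limma adjusted p = 0.0115), and its difference was 0.57 with the normexp correction. Nr1i3, the receptor named above for Cyp2b10, did not pass (-0.88, SE 0.80, limma adjusted p = 0.434). Its pairs went in both directions, by -0.44, 1.25 and -3.45. Nr1i2 and Hnf4a, which drive many P450 genes in liver, were not tested.

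**Figure D4:**
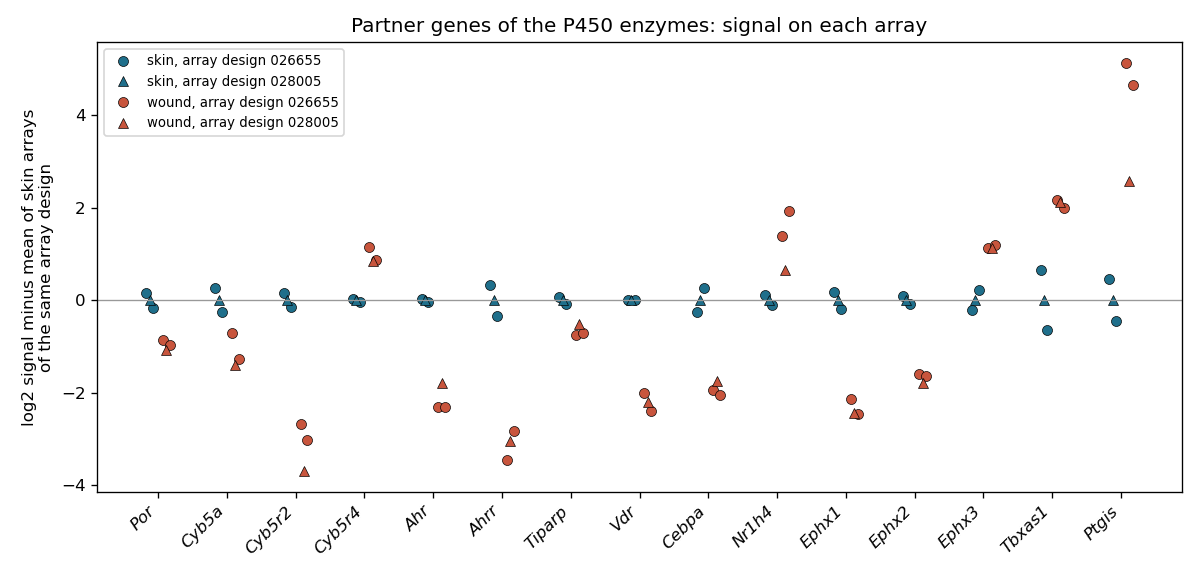
Signal of named partner genes on each array, as log2 minus the mean of the skin arrays of the same array design. There is 1 point per array, with the groups and array designs marked. Before that subtraction, relative to the 75th percentile of the array, Ahr lay between 1.28 and 2.61 in skin cells and between -0.99 and 0.83 in wound cells. On that scale Ptgis lay between -3.00 and 1.15 in skin cells and between 2.12 and 3.73 in wound cells.

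The last list held the P450 isomerases that carry other names and the epoxide hydrolases, which open the epoxides that P450 enzymes make. Of 6 genes, 3 rose, 2 fell and 1 did not pass, 83.3% called beside 34.1% of all genes. Ptgis, the prostacyclin synthase, read -2.09, -3.00 and 1.15 in skin cells and 2.59, 2.12 and 3.73 in wound cells. It was 17.4-fold higher (4.12, SE 0.52, limma adjusted p = 0.00167), with a smaller difference within design 028005 (2.58) and with the mean of its probes (2.52). Tbxas1, the thromboxane synthase, was not well above background on any skin array and was 3.53-fold higher against the background floor. Its fitted log2 difference was 2.09 (SE 0.33, limma adjusted p = 0.00439). That size holds for its brightest probe only: beside 2.09, the log2 difference was 0.96 with the mean of its probes and 1.29 in the authors' deposited table. With the normexp correction Tbxas1 did not pass (0.42, adjusted p = 0.0645). Ephx1, the microsomal hydrolase of toxic epoxides, read 5.41, 5.05 and 6.78 in skin cells and 3.11, 2.77 and 4.35 in wound cells, and was 5.07-fold lower (-2.34, SE 0.18, limma adjusted p = 0.000287). Ephx2, the soluble hydrolase of fatty acid epoxides, was 3.19-fold lower (-1.67, SE 0.14, limma adjusted p = 0.000433). Ephx3 rose by 1.15 (SE 0.17, limma adjusted p = 0.00326), and Ephx4 differed by -0.05 (adjusted p = 0.899).

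Marker genes were set beside the labels of the sorted cells. All 6 myofibroblast markers rose, Acta2 by 4.70, and of 7 fibroblast markers 0 rose and 1 fell (Pdgfra, -1.30). The groups were sorted on a smooth muscle actin reporter, so a higher Acta2 was set by the sort and does not check the label. As 5 of the 7 mural cell markers given below also rose, the lists do not tell myofibroblasts from mural cells. The general fibroblast markers were present in both groups. Of 6 tested white blood cell markers 0 passed with limma, and at an unadjusted p of 0.05 2 did (Cd68 at -0.50 and Adgre1 at 0.72). Ptprc, which encodes CD45, lay between -5.48 and -4.43 on the 6 arrays. Of 6 tested endothelial markers 3 rose (Esam, Emcn and Egfl7), and Pecam1, which encodes CD31, differed by 0.37 (limma adjusted p = 0.152). Among markers of other skin cells, most tested keratinocyte and Schwann cell markers fell, and the other lists held few or no markers that fell. Of 10 keratinocyte markers, 9 were tested and 8 fell, their summed linear level was 17.7 to 39.2 on skin arrays and 4.21 to 10.2 on wound arrays, Trp63 being the tested marker that did not pass, Krt1 was well above background on 0 wound arrays and Dsg3 on 0 of the 6 arrays. Trp63 read 1.77, 2.39 and 2.99 in wound cells and makes up most of the wound sum, and the median difference of the 9 tested markers was -4.22. Of 3 tested melanocyte markers 1 fell (Mlana, -3.06, limma adjusted p = 0.000765), and Tyr (0.27) and Pmel (0.47) did not pass. Dct was well above background on 2 skin arrays and 0 wound arrays, and the summed level of the list was 0.40 to 2.37 on skin arrays and 0.24 to 0.48 on wound arrays. Of 6 Schwann cell markers 4 fell, and their summed level was 1.42 to 4.47 on skin arrays and 0.80 to 1.82 on wound arrays. Of the 7 mural cell markers, of the cells that wrap small vessels, 5 rose, with sums of 21.6 to 38.3 on skin arrays and 64.0 to 169 on wound arrays. Of 4 tested adipocyte markers 1 rose, Fabp4 (2.76, limma adjusted p = 0.000313), which cells other than adipocytes also express. Adipoq, Lep and Retn did not pass, and Plin1, Cidec and Cfd were not tested. Of 4 tested sebocyte markers 1 rose (Soat1, 1.54) and 0 fell, and of 2 tested skeletal muscle markers 1 rose (Acta1, 3.68) and 0 fell. The part of these cells in the P450 differences was not tested.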

How the data were processed

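Per the file headers, the authors used Agilent Feature Extraction 10.7.3.1 on each 1-colour array, for designs of build mm9. The scanner files were deposited as linear intensity, with no scaling between arrays. The values of the authors' deposited table were taken as log2, combined from the designs in GeneSpring 14.5, as the design text of the series states, and centred per gene within a design. Scale and direction were settled by its differences between arrays, which matched log2 differences of the scanner values (slopes 1.00, 1.00 and 0.976, 16556 genes). Its column medians lay between -0.28 and -0.21. The design text names a human array, but the organism label is mouse and probes were named as mouse genes, through the table and RefSeq accessions.

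Control spots and 89 to 678 outlier spots an array were left out, 64.4% to 72.6% of spots were well above background and 0 were saturated. Correlations across genes were 0.97 to 0.989 within groups and 0.901 to 0.923 between them. Precision is limited by the 6 arrays. The brightest probe per gene and design was tested, as log2 processed signal relative to the 75th percentile of its array (limma 3.58.1, R 4.3.3, tables with Python 3.11.15). Array design, which is also slide and scan, was a fixed term, leaving 3 residual degrees of freedom, 6.25 after moderation. A fold against the background floor is given where every array of a group missed the background limit. It divides the bright group by a floor, for each dim array its lowest signal well above background or the probe itself if brighter, averaged over arrays as log2. The floor is a lenient limit, so such a fold is no strict lower bound. It was not itself tested, and the limma p-value given near it belongs to the fitted difference. The test was also run on simulated data with independent noise and 200 changed genes. Those settings differ from these arrays, so that run cannot show that the p-values hold here.

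Members, lists and tests were chosen with earlier results of these data known. Array values are given for called members (up to 15) and the 5 brightest that did not pass. Cyp2g1 was added after its values were seen. All called partner genes are named, more than the planned 4 a list, and Por. Arnt, Nr1i3, Ephx4 and untested regulators were added later. Alternatives covered the design term, a replicate block, background (normexp with offset 50, on the median signal in place of the planned mean signal), scaling, probe choice, the authors' table, filters, single designs, each array left out and a threshold of 0.01.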

Additional observations from a re-analysis of the deposited data

How the results depend on the processing

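The 13 calls among P450 members (8 lower, 5 higher) numbered 11 to 14 under the other backgrounds, scalings, probe choices, filters and the authors' table. Without a term for the array design there were 7 (1 higher, 6 lower), at an adjusted p of 0.01 there were 6 (2 higher, 4 lower), and with no filter on dim probes 3 were higher. Leaving out 1 array at a time gave 7 to 12 calls, 2 to 4 of them higher and 5 to 8 lower, with the fewest without skin replicate 1. Partner genes had 21 calls and 8 without the design term (16 to 21 with an array left out). By list, without that term, 1 of 5 electron donor calls, 0 of 2 haem, 4 of 9 regulator and 3 of 5 isomerase and hydrolase calls were made. Haem synthesis had 1 call with normexp, 1 with no filter and 1 on design 026655 alone. Leaving out 1 array gave 3 to 4 electron donor, 1 to 2 haem and 7 to 10 regulator calls. Cyp2j13 turned to 0.080 with the mean of all probes. Cyp39a1 turned to 0.064 on design 026655 alone, which leaving out either array of design 028005 equals by construction, and ranged from -0.30 to 0.064 with an array left out. Cyp2f2, Cyp2j9 and Cyp4b1 passed under all of these settings. Without the design term the offset between designs enters the spread, and 1745 of all genes passed.

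With the replicate number as a block, 14 members passed, 12 of them shared with the 13. Cyp7b1 (higher) and Cyp2w1 (lower) were gained and Cyp2s1 was lost, and 5594 of all genes passed instead of 5691. The numbers are not known to pair the samples: deviations of replicates 1 and 2 correlated at r = 0.15 between groups over 16695 genes, and the arrays of design 028005 have no number. Dim probes limit what can be said: with normexp and an offset, differences of Cyp1a1, Cyp2b10 and Cyp4b1-ps2 were 1.13, -0.60 and -1.27.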

Other observations

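Some P450 genes outside the set were also measured. Cyp27a1, the mitochondrial sterol hydroxylase of bile acid synthesis, is on both array designs but is not among the genes of the authors' table. In replicate order, it read -0.85, -1.37 and -1.19 in skin cells and -6.61, -6.49 and -6.51 in wound cells, of which 1 was well above background. It was lower in wound cells (limma adjusted p = 5.19e-05), and its fitted difference of -5.40 (SE 0.19) is taken against wound values mostly at background, so its size is uncertain. Cyp26b1, which breaks down retinoic acid, read 7.13, 6.89 and 8.43 in skin cells and 2.09, 2.63 and 4.47 in wound cells, a difference of -4.43 (SE 0.23, limma adjusted p = 0.000102). Cyp51, of cholesterol synthesis, did not pass (-0.70, SE 0.26, limma adjusted p = 0.0895). Cyp2c65, not well above background on any skin array, stood 3.99-fold higher in wound than in skin cells against the background floor. Its fitted difference was 2.23 (SE 0.49, limma adjusted p = 0.0159). Cyp27a1 and Cyp2c65 were the 2 genes tested of 30 such genes outside the table, and Cyp26b1 and Cyp51 the 2 tested of 4 left out by the rule.

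Probes of 1 gene did not always move together. The set had 85 probes, and 18 members had more than 1. Cyp2r1 and Cyp2j6, which did not pass with their brightest probe, passed with the mean of all their probes, Cyp2r1 as higher and Cyp2j6 as lower in wound cells.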
